A study of Mus musculus with 22 samples.

Results

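The genes described here encode the SR proteins, the CLK kinases that phosphorylate them, and the hnRNPs. They were taken from 2 tables of normalized read counts by symbol, as Srsf followed by a number, Tra2a, Tra2b, Clk1 to Clk4 and every symbol that starts with Hnrnp, leaving out pseudogenes. This gave 37 of the 24411 genes in each table, of which 13 are SR proteins (11 Srsf genes and the SR-like Tra2a and Tra2b), 4 are CLK kinases and 20 are hnRNPs. All 37 passed the filter on low values in both tables.

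RNA was sequenced from cultured neural stem cells of the adult mouse hippocampus in 22 libraries, which form 2 arms against the enzyme O-GlcNAc transferase (OGT). In the knockdown arm, 5 shOgt libraries came from cells infected with lentivirus carrying a short hairpin RNA against Ogt, and 6 shLuc libraries from cells infected with a luciferase hairpin. Both groups carried virus at 10 particles per cell and were collected after 3 days. In the inhibitor arm, 5 OSMI-1 libraries came from cells given the OGT inhibitor OSMI-1 at 12.5 µM for 24 hours, and 6 vehicle libraries from cells given the same volume of its solvent DMSO. No library is shared between the arms. Nothing in the labels ties a library to an animal or a culture, so a p-value here measures the spread between libraries, which may be technical. The labels also give neither the age of the animals nor the number of hairpins. The arms differ in agent and in duration, and each was normalized within its own table.

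SR proteins carry a domain rich in arginine and serine and mostly promote the use of exons and splice sites that they bind. The CLK kinases phosphorylate that domain and release SR proteins from nuclear speckles, the stores of splicing factors in the nucleus. hnRNPs coat nascent RNA and often act against SR proteins at the same exons, and they also take part in RNA export, stability and translation. Many genes of these families control their own messenger RNA by including a poison exon or by keeping an intron, which leads to nonsense-mediated decay or holds the transcript in the nucleus. OGT attaches a single sugar to serines and threonines of nuclear and cytosolic proteins, RNA-binding proteins among them.

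The sequences upstream of 3 genes that fell with OSMI-1, Hnrnpa1, Hnrnpa0 and Srsf3, are shown first. They are among the 4 with the largest differences between the arms, of the members whose difference passed at an adjusted p under 0.05. The other, Hnrnph3, ranked above Srsf3, but its RefSeq window lies inside its annotated gene and is not shown, and that promoter entry held no CCAAT. Each sequence is the RefSeq promoter entry (GRCm38.p6), ends at the base before the annotated start or before the first annotated exon, and runs 5′ to 3′ on the gene's strand. Capitals mark the CCAAT box, a common promoter element, in either orientation (CCAAT or its reverse complement ATTGG).
Hnrnpa1, chr15:103240147-103240396, plus strand: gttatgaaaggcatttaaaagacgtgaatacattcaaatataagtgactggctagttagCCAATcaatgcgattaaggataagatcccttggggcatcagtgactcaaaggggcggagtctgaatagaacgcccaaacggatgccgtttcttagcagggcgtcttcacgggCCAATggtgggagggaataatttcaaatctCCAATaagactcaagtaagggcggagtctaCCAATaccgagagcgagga
Hnrnpa0, chr13:58128557-58128806, minus strand: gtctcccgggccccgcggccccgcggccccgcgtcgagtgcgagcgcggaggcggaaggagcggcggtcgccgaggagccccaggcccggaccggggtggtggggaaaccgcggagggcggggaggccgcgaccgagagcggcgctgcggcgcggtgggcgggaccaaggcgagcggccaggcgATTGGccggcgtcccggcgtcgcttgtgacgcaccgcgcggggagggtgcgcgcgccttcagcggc
Srsf3, chr17:29032410-29032627, plus strand: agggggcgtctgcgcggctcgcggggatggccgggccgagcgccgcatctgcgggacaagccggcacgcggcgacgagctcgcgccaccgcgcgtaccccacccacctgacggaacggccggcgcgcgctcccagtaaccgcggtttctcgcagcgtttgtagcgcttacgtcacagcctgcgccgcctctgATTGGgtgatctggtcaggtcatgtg
The Hnrnpa1 entry held 4 CCAAT boxes, and the Hnrnpa0 and Srsf3 entries 1 each. The upstream windows also differed in base composition, with 46.0% G and C in Hnrnpa1, 81.2% in Hnrnpa0 and 71.1% in Srsf3.

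CCAAT in either orientation occurred in 13 of the 18 hnRNPs, 5 of the 13 SR proteins and 1 of the 3 CLK kinases that have a promoter entry, in windows from 250 bases before to 50 after the start. Among all 32851 entries of that length 37.4% held it, and among the 8728 genes tested in the inhibitor arm that have an entry 43.8% did. By call in the inhibitor arm, 10 of the 14 hnRNPs that fell and 3 of the 4 that did not held it, as did 3 of the 6 SR proteins that fell and 2 of the 7 that did not. Over all members it was in 65.0% of those that fell and 42.9% of the rest, beside 51.2% and 42.7% of all genes with an entry. The knockdown arm went the other way for members. There 1 of the 5 that fell and 18 of the 29 that did not held it, beside 48.9% and 42.5% of all genes with an entry. A match says only that these letters are in the window.

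A second short sequence, AACATGC, was looked for in the 3′ untranslated regions (GENCODE M21, GRCm38), because earlier work on these same libraries had singled it out among the genes with the largest falls after knockdown. It is therefore no independent evidence here. No SR protein or CLK kinase had a match on the transcript strand, and 5 of the 20 hnRNPs did, namely Hnrnpdl, Hnrnph1, Hnrnph2, Hnrnpr and Hnrnpu. The 3 of these with the lowest log2 fold changes after knockdown are shown with 10 bases on either side and the match in capitals.
Hnrnpdl, chr5:100035089-100035095, minus strand: tttgctgatgAACATGCgtgtgatctt
Hnrnph1, chr11:50386226-50386232, plus strand: catgttgaaaAACATGCttttttgtaa
Hnrnph2, chrX:134606744-134606750, plus strand: catgttgaaaAACATGCttttctgtaa
Hnrnph1 and Hnrnph2, paralogs that bind runs of G, had the match in nearly the same context. The coordinates are those of the 7 matched bases, which begin 1030, 450 and 487 bases after the stop codon in Hnrnpdl, Hnrnph1 and Hnrnph2. The median log2 fold change in the knockdown arm was -0.20 over the 5 hnRNPs with the match and -0.05 over the 15 without, and only Hnrnpdl among the 5 passed the test. Over all tested genes with an annotated 3′ untranslated region, 28.3% of those with the match fell after knockdown and 15.6% of those without. A longer region has more room for a match, and the part of its length in these shares was not tested.

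Library facts that bear on the families were as follows. Reads counted to genes numbered 7.22 to 13.2 M per shOgt or shLuc library, and 4.52 to 12.8 M per OSMI-1 or vehicle library. Ogt itself averaged 424 ± 63.9 normalized counts in shOgt and 836 ± 89.8 in shLuc libraries (SD, n = 5 and 6), a log2 fold change of -0.98 (limma adjusted p = 1.11e-06), with every shOgt library below every shLuc library. With OSMI-1 it averaged 599.9 ± 42.5, against 455 ± 37.6 in vehicle. The stem cell markers Nes, Vim, Slc1a3, Fabp7, Sox9 and Egfr were present in all groups the lowest group mean being 775 normalized counts, while Sox2 was low at 58.7 to 65.6. Every microglial marker and the neuronal marker Dcx were under 10 in every group mean. The summed level of the 6 neuronal markers was 634 to 732 in shOgt and 289 to 321 in shLuc libraries, and 80.2 to 112 in OSMI-1 and 143 to 188 in vehicle libraries. Olig1, a gene of the oligodendrocyte lineage, was abundant throughout, with 10257 in shOgt and 18601 in shLuc libraries and 12254 in OSMI-1 and 10465 in vehicle libraries, while Sox10 and Mog of that lineage were under 1 in every group mean. The summed level of the 4 astrocyte markers was 3092 to 4039.5 in shOgt and 2887 to 3244 in shLuc libraries, which overlapped, and 1773 to 2055 in OSMI-1 and 1369 to 1621 in vehicle libraries, which did not. The summed level of the 3 ependymal markers was 126 to 181 in shOgt and 59.0 to 166 in shLuc libraries, and 48.9 to 94.8 in OSMI-1 and 108 to 183 in vehicle libraries, without overlap in the inhibitor arm. The proliferation marker Mki67 averaged 636 in shOgt and 1286 in shLuc libraries, and 287 in OSMI-1 and 738 in vehicle libraries. The part of dividing cells and of neuronal, glial or ependymal RNA in the results below was not tested. In bulk RNA, fewer cells of a type and less RNA per cell cannot be told apart. Reads of the ribosomal precursor Rn45s took 0.921% to 1.25% of each shOgt or shLuc library, and 4.81% to 14.2% of each OSMI-1 or vehicle library.

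The hnRNPs were the more abundant class, with summed normalized counts of 45338 ± 2561 in shLuc libraries beside 14234 ± 512 for the SR proteins. Per kilobase of the principal coding transcript, Hnrnpk, which binds runs of C, was highest in both control groups, with 4953 ± 485 normalized counts per kilobase in shLuc and 3152 ± 190.4 in vehicle libraries (SD, n = 6 each). Hnrnpf, a binder of G runs, came next with 4199 ± 267 in shLuc and 2159 ± 109 in vehicle libraries. Hnrnpa2b1 and Hnrnpa1, the core A/B hnRNPs, followed with 2254 ± 112 and 2142 ± 285 in shLuc libraries, a pair whose levels lay within their spread of each other. In vehicle libraries the same pair stood at 1681 ± 118 and 1624 ± 47.3 per kilobase, again within the spread. Among SR proteins, Srsf7 led the shLuc libraries with 1091 ± 95.8 per kilobase, and Srsf3 led the vehicle libraries with 673 ± 58.2, just above Srsf7 with 599 ± 44.9. Srsf12, a small SR protein known to oppose other SR proteins, was the lowest member in either control group at 5.84 ± 2.71 per kilobase in shLuc and 5.53 ± 1.93 in vehicle libraries. All members together took 0.575% ± 0.0602 of reads in shOgt and 0.594% ± 0.0365 in shLuc libraries, which overlapped. They took 0.559% ± 0.0253 in OSMI-1 and 0.707% ± 0.0366 in vehicle libraries, where the highest OSMI-1 library, at 0.586%, lay below the lowest vehicle library, at 0.661%.

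With OSMI-1 most hnRNPs and a smaller share of SR proteins fell, while no CLK kinase did. Of 20 hnRNPs, 15 fell and none rose, and all 20 had a log2 fold change below 0. Of 13 SR proteins 6 fell and none rose, and of 4 CLK kinases 1 rose and none fell. These calls are from limma with Benjamini-Hochberg adjustment at 0.05 over 11349 genes, of which 13.2% fell and 11.6% rose. The median log2 fold change was -0.36 for hnRNPs, -0.24 for SR proteins and 0.32 for CLK kinases, beside 0.00 for all genes tested. Every OSMI-1 library lay below every vehicle library for 10 hnRNPs and 5 SR proteins, beside 7.71% of all genes, and above for 1 CLK kinase, beside 6.27%.

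**Figure D1:**
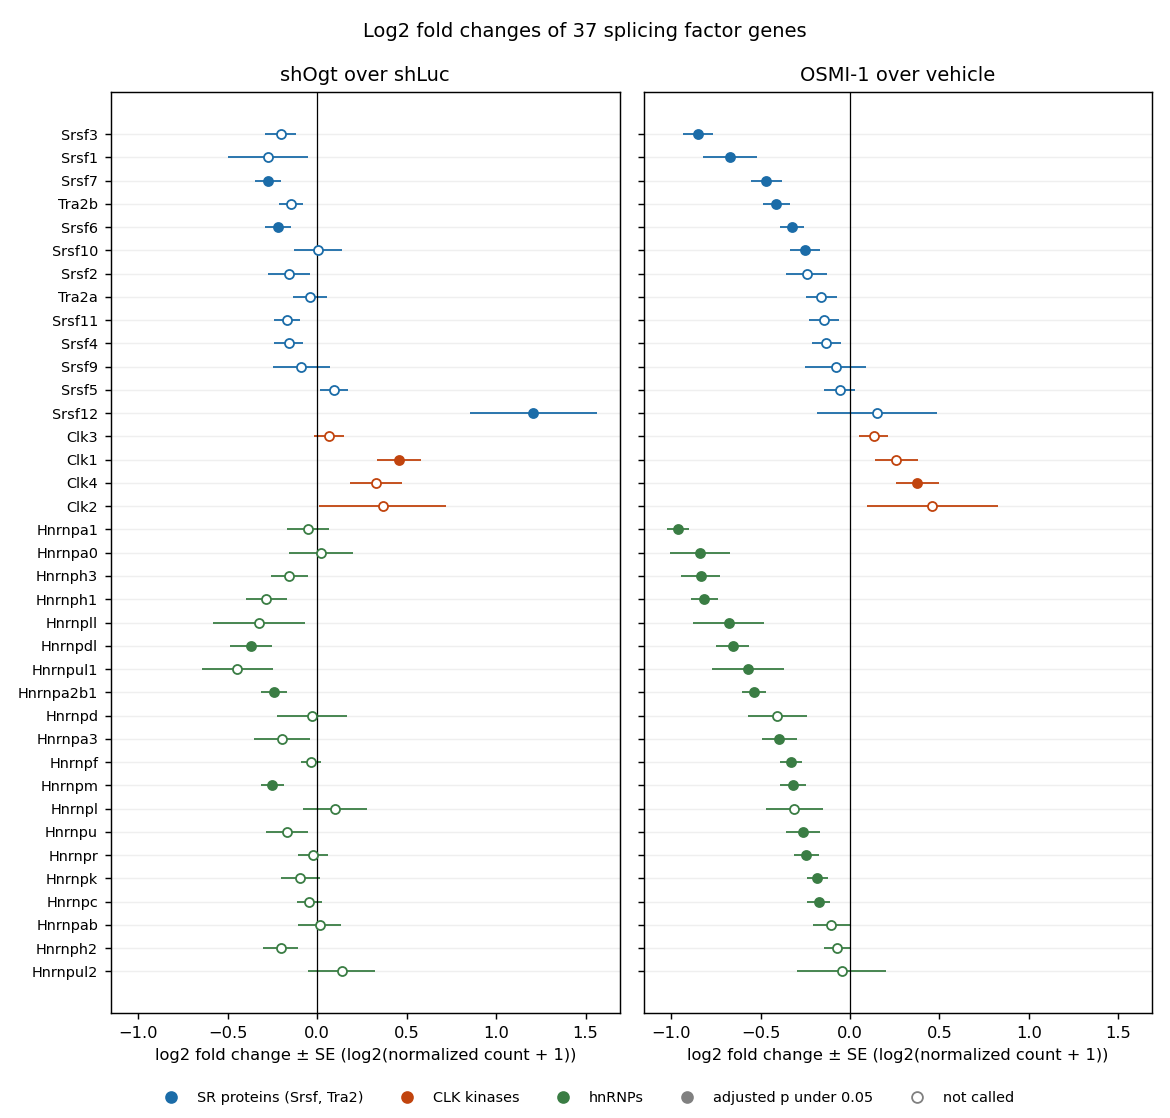
Log2 fold change with its standard error for the 37 genes, shOgt over shLuc at left and OSMI-1 over vehicle at right, colored by class, with filled points where the limma adjusted p was under 0.05. All 20 hnRNPs lie below 0 and all 4 CLK kinases above 0 in the inhibitor arm, and in the knockdown arm 7 genes are filled.

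Hnrnpa1 changed most among the hnRNPs. This A/B hnRNP represses exons by binding splicing silencers. It had 1581, 1588, 1444, 1694 and 1685 normalized counts in the OSMI-1 libraries, against a lowest value of 3010.3, a median of 3089 and a highest of 3274 in vehicle libraries. The groups were far apart and each was tight. Its log2 fold change was -0.96 ± 0.06 (SE; limma adjusted p = 4.54e-11), so that the fitted level fell by 48.7%. Hnrnpa1 has many processed copies in the genome, and reads shared with them may be counted in either place.

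The H family proteins bind runs of G beside splice sites. Hnrnph1 had 695, 671, 556, 607 and 621 normalized counts in the OSMI-1 libraries and 1010.4, 1121 and 1175 as the lowest, median and highest vehicle values. It fell by 0.81 ± 0.07 on the log2 scale (SE; limma adjusted p = 2.37e-08), without overlap. Hnrnph3, its shorter relative, had 167, 139.9, 182, 179 and 144 with OSMI-1, against 253, 286 and 329 in vehicle. It did not overlap either, with a log2 fold change of -0.84 ± 0.11 (limma adjusted p = 4.89e-06). Hnrnph2, the near-identical X-linked paralog of Hnrnph1, had 1080.3 ± 100.1 normalized counts in OSMI-1 and 1134 ± 80.8 in vehicle libraries (SD, n = 5 and 6) and a log2 fold change of -0.07 ± 0.08 that did not pass (limma adjusted p = 0.532). Whether Hnrnph1 and Hnrnph2 differ in response was not tested. Hnrnpf, the fourth G-run binder, had 4077, 4108, 3754, 3716 and 3841 with OSMI-1 and 4418, 4969.7 and 5106 as the lowest, median and highest vehicle values. It fell by less, with a log2 fold change of -0.33 ± 0.06 (limma adjusted p = 0.000222).

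Among the other A/B and D type hnRNPs, Hnrnpa0, an intronless relative of Hnrnpa1 that binds AU-rich RNA, had 74.7, 67.9, 41.7, 79.9 and 63.0 normalized counts with OSMI-1, against 103, 113 and 139.6 as the lowest, median and highest vehicle values. The groups did not overlap, and the log2 fold change was -0.84 ± 0.17 (limma adjusted p = 0.000696). Hnrnpa2b1, which also guides RNA transport in neurons and glia, had 2097, 1953, 1779.8, 1922 and 1798 with OSMI-1 and 2538, 2705 and 3022 in vehicle. It fell without overlap, with a log2 fold change of -0.54 ± 0.07 (limma adjusted p = 2.23e-06). Hnrnpdl, a relative of the AU-rich element binder Hnrnpd, had 329, 295, 271, 322 and 319.6 with OSMI-1 and 401, 493 and 547 in vehicle. Again without overlap, it fell by 0.66 ± 0.09 (limma adjusted p = 1.58e-05). Hnrnpa3 fell by less, averaging 363 ± 42.3 in OSMI-1 and 477 ± 52.6 in vehicle libraries, with overlap between the groups.

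The remaining hnRNP calls were smaller or came from low levels. Hnrnpm, which binds GU-rich RNA, averaged 1135 ± 114 normalized counts with OSMI-1 and 1409.8 ± 70.1 in vehicle, a log2 fold change of -0.32 that overlapped between groups. Hnrnpr, a binder of RNA in axons, fell by 0.24 and did not overlap. Hnrnpll, known for splicing the receptor CD45 in T cells, averaged 52.1 ± 9.74 with OSMI-1 and 85.5 ± 22.8 in vehicle. Hnrnpk and the U-tract binder Hnrnpc had small falls of 0.18 each (limma adjusted p = 0.0236 and 0.0423) without overlap. Both, with Hnrnpu, a scaffold protein of the nuclear matrix (limma adjusted p = 0.043), and Hnrnpul1 (limma adjusted p = 0.0398), were the hnRNP calls nearest the threshold. Without vehicle 1 and OSMI-1 5, the libraries that stood apart on principal components, none of these 4 was called, and 12 hnRNPs fell in place of 15. The hnRNPs that were not called were Hnrnpab, Hnrnpd, Hnrnph2, Hnrnpl, which binds CA repeats, and Hnrnpul2, with log2 fold changes between -0.41 and -0.05. Hnrnpd passed without those libraries (adjusted p = 0.0305). With single libraries left out, Hnrnpc lost its call for every library but vehicle 3 (adjusted p of up to 0.104) and Hnrnpk for OSMI-1 4 or vehicle 5 (up to 0.0587). Hnrnpu lost it for OSMI-1 2, OSMI-1 4 and vehicle 1, 2, 4 or 5 (up to 0.135), and Hnrnpul1 for OSMI-1 2, 5 or 6 and vehicle 2, 4 or 5 (up to 0.106). Hnrnpd passed without OSMI-1 5 alone (0.0286).

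**Figure D2:**
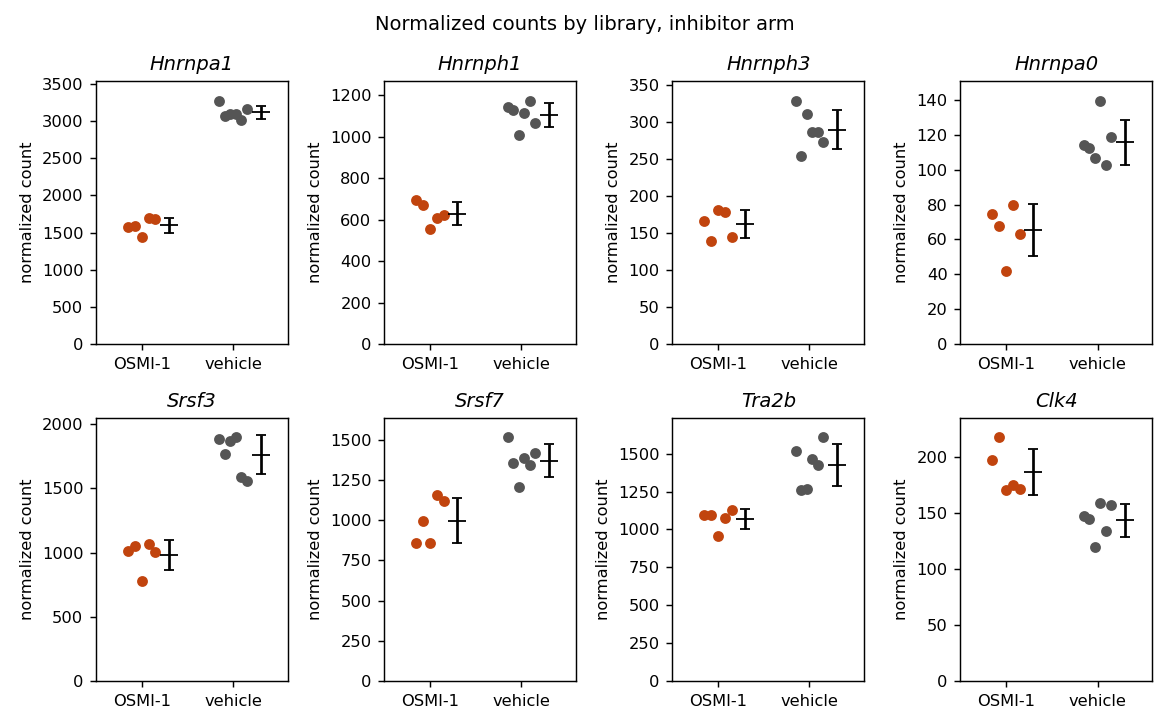
Normalized counts by library in the inhibitor arm for 8 genes, OSMI-1 libraries at left and vehicle at right of each panel, with mean and SD at the side and the axis from 0. The groups do not overlap in any panel, and Clk4 is the gene that is higher with OSMI-1.

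Srsf3 led the SR proteins. It is a small SR protein that also links splicing to messenger RNA export and to the choice of the polyadenylation site. It had 1013, 1054, 777, 1063 and 1001 normalized counts in OSMI-1 libraries, against 1559.7, 1817 and 1898 as the lowest, median and highest in vehicle. Its log2 fold change was -0.85 ± 0.08 (SE; limma adjusted p = 7.48e-08), without overlap. Srsf7, its closest relative and likewise an export adaptor, had 858, 994, 858, 1156 and 1120.3 with OSMI-1 and 1204, 1372 and 1516 in vehicle. Its fall was smaller and still without overlap, with a log2 fold change of -0.47 ± 0.09 (limma adjusted p = 0.000271).

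Srsf1, an SR protein that also shuttles to the cytoplasm, was low in these tables, with 177, 139.9, 106, 224 and 174 normalized counts with OSMI-1 and 204, 256 and 316 as the lowest, median and highest in vehicle. One OSMI-1 library lay inside the vehicle range, and the log2 fold change was -0.67 ± 0.15 (limma adjusted p = 0.00225). Srsf6, one of the longer SR proteins, had 1343, 1289, 1300.5, 1444 and 1467 with OSMI-1, against 1609, 1677 and 1832 in vehicle. It fell by 0.32 ± 0.07 on the log2 scale (limma adjusted p = 0.000722), without overlap. Tra2b, which promotes exons with GAA repeats, had 1093, 1094, 960.1, 1073 and 1127 with OSMI-1 and 1259.6, 1448 and 1609 in vehicle. Its groups did not overlap and it fell by 0.41 ± 0.08 (limma adjusted p = 0.000279). Srsf10, a repressor of splicing when it loses its phosphates, fell by 0.25 with overlap between groups (limma adjusted p = 0.0303). Its call was lost without any of OSMI-1 4, OSMI-1 6, vehicle 1, vehicle 4, vehicle 5 or vehicle 6, with adjusted p of up to 0.104. Tra2a, the paralog of Tra2b, lay lower in every OSMI-1 library but did not pass (log2 fold change -0.16, limma adjusted p = 0.207). The other uncalled SR proteins, Srsf2, Srsf4, Srsf5, Srsf9, Srsf11 and Srsf12, had log2 fold changes between -0.24 and 0.15.

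All 4 CLK kinases had log2 fold changes above 0 with OSMI-1, from 0.13 to 0.46. Clk4 had 198, 218, 170.4, 175 and 172 normalized counts with OSMI-1, against 119.6, 146 and 159 as the lowest, median and highest vehicle values. It rose without overlap, with a log2 fold change of 0.38 ± 0.12 (SE; limma adjusted p = 0.0238). The call was lost on leaving out any of OSMI-1 1, OSMI-1 2 or vehicle 3, with adjusted p of up to 0.0754. Clk1 averaged 327 ± 71.7 with OSMI-1 and 269 ± 27.4 in vehicle and did not pass (limma adjusted p = 0.13), and Clk2 was low, at 26.5 ± 8.83 with OSMI-1 and 20.5 ± 8.88 in vehicle.

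After Ogt knockdown 7 members passed, beside 22 with OSMI-1. Of 13 SR proteins 2 fell and 1 rose, of 4 CLK kinases 1 rose and none fell, and of 20 hnRNPs 3 fell and none rose. Among the 12136 genes tested in this arm 16.4% fell and 15.4% rose, beside 5 and 2 of the 37 members, shares near or under those of all genes. The median log2 fold change was -0.13 for hnRNPs, -0.16 for SR proteins and 0.35 for CLK kinases, beside 0.01 for all genes. The shOgt 3 library had the lowest summed hnRNP count of this arm, 35391, beside 41455 to 47150 in the other shOgt libraries. Groups did not overlap, with shOgt lower, for 1 SR protein and 1 hnRNP, beside 9.96% of all genes, and for no member with shOgt higher, beside 8.83%.

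Srsf7 and Hnrnpm were the members that did not overlap. Srsf7 had 1899, 2055, 2205, 2064 and 2074 normalized counts in shOgt libraries, against 2307, 2447 and 2852 as the lowest, median and highest in shLuc. It fell by 0.27 ± 0.07 on the log2 scale (SE; limma adjusted p = 0.00598). Hnrnpm had 3327, 3605, 3871, 3649 and 3289.8 in shOgt and 3876, 4318 and 4492 in shLuc libraries, where the closest values nearly touched. It fell by 0.25 ± 0.06 (limma adjusted p = 0.00571). Hnrnpm shares exon sequence with the neighboring gene March2 on the same strand, and reads from that stretch cannot be assigned from the tables.

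The other falls overlapped. Hnrnpa2b1 had 2701, 3229, 3058, 3634 and 3150.4 normalized counts in shOgt libraries, against 3548, 3666 and 4035 as the lowest, median and highest in shLuc, and 1 shOgt library lay inside the shLuc range. Its log2 fold change was -0.24 ± 0.07 (SE; limma adjusted p = 0.013). Hnrnpdl had 259.7, 302, 258, 329 and 347 in shOgt and 338, 386 and 443 in shLuc libraries, again with 1 library inside. Its log2 fold change was -0.37 ± 0.12 (limma adjusted p = 0.0207). Both calls were lost without shOgt 1, with adjusted p of 0.0544 for Hnrnpa2b1 and 0.0659 for Hnrnpdl. Srsf6 had 2012, 2117, 1838, 2167 and 2155 in shOgt and 2137, 2426 and 2601 in shLuc libraries. It fell by 0.22 ± 0.07 (limma adjusted p = 0.0235) and lost its call without any of shOgt 1, shOgt 3, shLuc 2 or shLuc 6, with adjusted p of up to 0.0581. Without shOgt 1, 4 members were called in place of 7. Hnrnph1, at 819 ± 126 in shOgt and 997 ± 159.6 in shLuc libraries, did not pass (limma adjusted p = 0.069) but did without shOgt 6 or shLuc 3, and Srsf11 and Srsf3 passed without shLuc 1 and shLuc 3 (adjusted p = 0.0403 and 0.032).

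Both rises were in genes of modest level. Clk1, a kinase whose own transcript is held back by retained introns, had 444, 387, 353, 399 and 523 normalized counts in shOgt libraries, against 239, 304 and 359 as the lowest, median and highest in shLuc. The groups met at 1 shOgt library, and the log2 fold change was 0.46 ± 0.12 (SE; limma adjusted p = 0.00822). Srsf12 had 46.2, 45.4, 25.4, 38.4 and 37.5 in shOgt, against 9.07, 14.2 and 28.0 in shLuc libraries. It rose by 1.21 ± 0.35 (limma adjusted p = 0.013), the largest fold of any member in either arm, from counts that are the lowest of all members. Clk4 averaged 309 ± 48.8 in shOgt and 248 ± 45.3 in shLuc libraries and did not pass (log2 fold change 0.33, limma adjusted p = 0.0952). Hnrnpa1, the member with the largest fall with OSMI-1, averaged 4014 ± 814 in shOgt and 4108 ± 548 in shLuc libraries, with a log2 fold change of -0.05 (limma adjusted p = 0.786). The 95% interval of that value ran from -0.30 to 0.20.

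**Figure D3:**
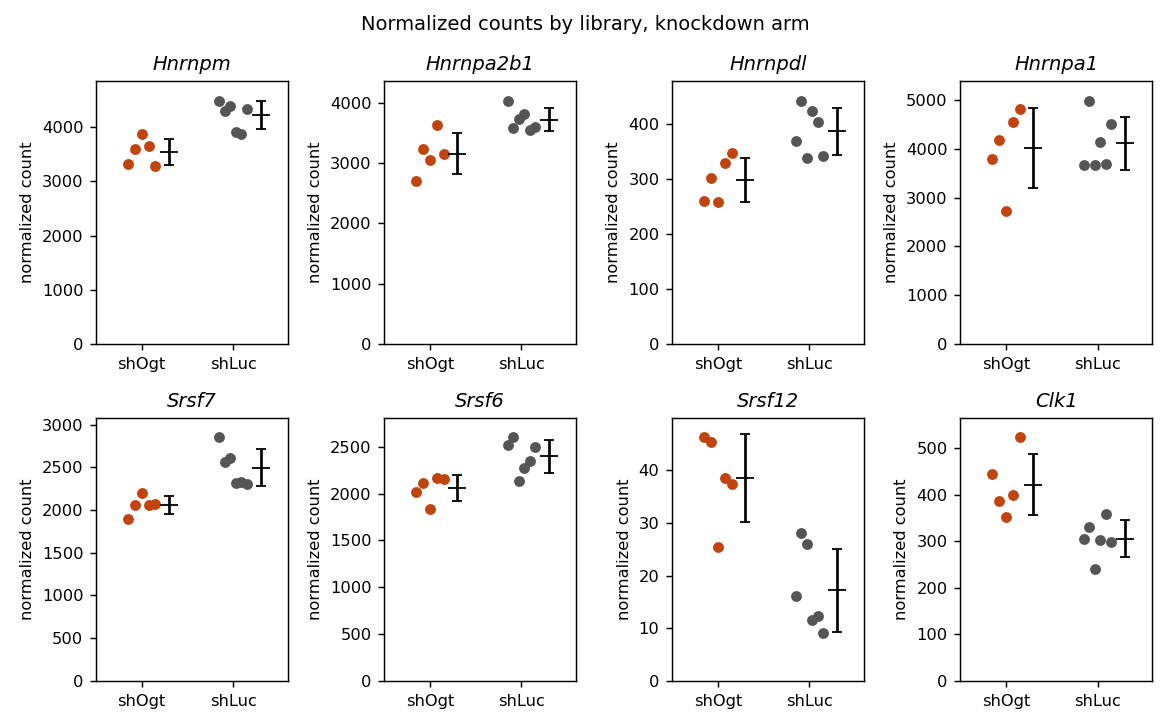
Normalized counts by library in the knockdown arm for 8 genes, shOgt at left and shLuc at right of each panel, with mean and SD at the side and the axis from 0. Srsf7 and Hnrnpm are the panels whose groups do not overlap, and the Hnrnpa1 groups lie on top of each other.

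Set side by side, the 5 members that fell after knockdown, Srsf6, Srsf7, Hnrnpa2b1, Hnrnpdl and Hnrnpm, all fell with OSMI-1 as well, and they made up 23.8% of the 21 members that fell with OSMI-1. Among all genes tested in both arms, 32.5% of those that fell after knockdown fell with OSMI-1, and these made up 42.6% of the genes that fell with OSMI-1. No member that rose in one arm was called in the other.

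The arms differed for 8 members when the 2 log2 fold changes were compared directly, beside 23.9% of the 11269 genes tested in both arms (difference of limma estimates, Benjamini-Hochberg over those genes). All 8 differences were in the direction of a lower value with OSMI-1. They belonged to Hnrnpa1 (0.91 ± 0.13, knockdown minus OSMI-1, SE; limma adjusted p = 4.91e-06), Hnrnpa0 (0.86 ± 0.25), Hnrnph3 (0.68 ± 0.15), Srsf3 (0.64 ± 0.12), Hnrnph1 (0.53 ± 0.14), Hnrnpa2b1 and Hnrnpf (0.29 each) and Tra2b (0.27 ± 0.10). The Tra2b difference was at the threshold (adjusted p = 0.0491). The differences for Clk1, Clk4 and Srsf12 did not pass, with adjusted p of 0.444, 0.881 and 0.114, so the calls in one arm alone do not show that these genes responded differently. With Srsf12 the difference was 1.06 ± 0.49.

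**Figure D4:**
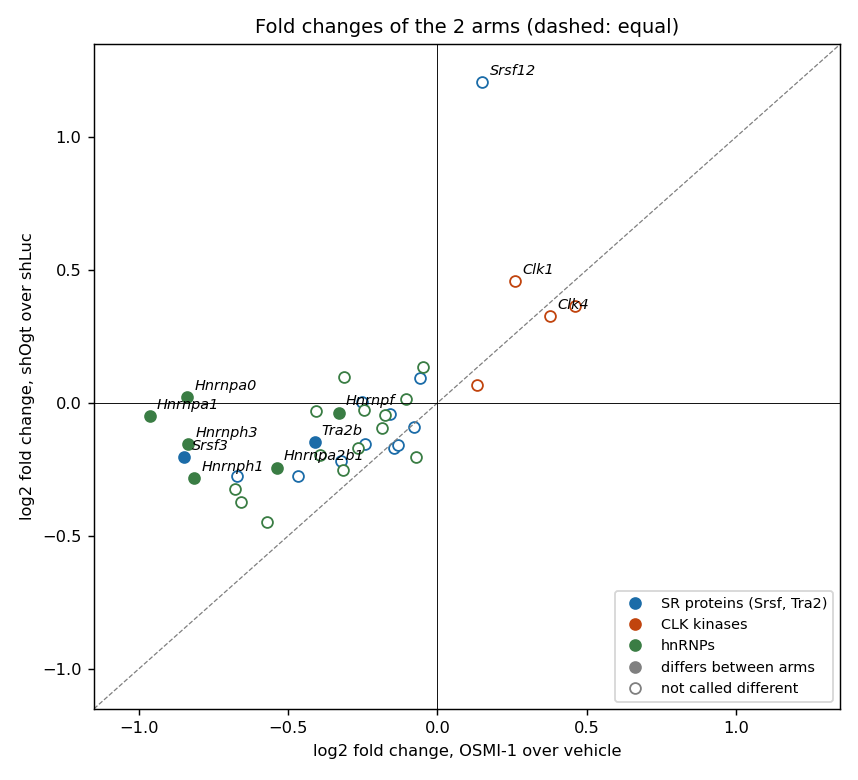
Log2 fold change of each member after knockdown (vertical) against that with OSMI-1 (horizontal), with the line of equal values dashed and filled points where the 2 differ at an adjusted p under 0.05. The 8 filled genes lie above the line, with Hnrnpa1 and Hnrnpa0 near 0 on the vertical axis and near -0.9 on the horizontal one.

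SR proteins and hnRNPs were contrasted within each library by the mean of log2(normalized count + 1) over the class. The SR minus hnRNP difference was -0.14 ± 0.07 in OSMI-1 and -0.30 ± 0.06 in vehicle libraries (SD, n = 5 and 6), a shift of 0.157 with 1 library of each group inside the range of the other. The hnRNP mean stood at 8.65 ± 0.09 in OSMI-1 and 9.09 ± 0.03 in vehicle libraries, and the SR mean at 8.51 ± 0.05 in OSMI-1 and 8.79 ± 0.07 in vehicle libraries. In the knockdown arm the difference was -0.14 ± 0.07 in shOgt and -0.24 ± 0.08 in shLuc libraries. That shift of 0.100 in class means was -0.00338 with Srsf12 left out, an alternative chosen after seeing the data. The inhibitor arm kept 0.121 without Srsf12. With the median over members in place of the mean, the shift was 0.263 with OSMI-1 and 0.226 after knockdown, so its size depends on the summary used. After knockdown its sign did as well. There the median log2 fold change over members was -0.16 for SR proteins, lower than the -0.13 for hnRNPs. The sums of normalized counts, which weigh the abundant genes, gave ratios within the spread of each other. SR counts were 0.348 ± 0.0145 of hnRNP counts in OSMI-1 and 0.352 ± 0.0106 in vehicle libraries, and 0.304 ± 0.0236 in shOgt and 0.314 ± 0.0107 in shLuc libraries. No p is given for these class scores.

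**Figure D5:**
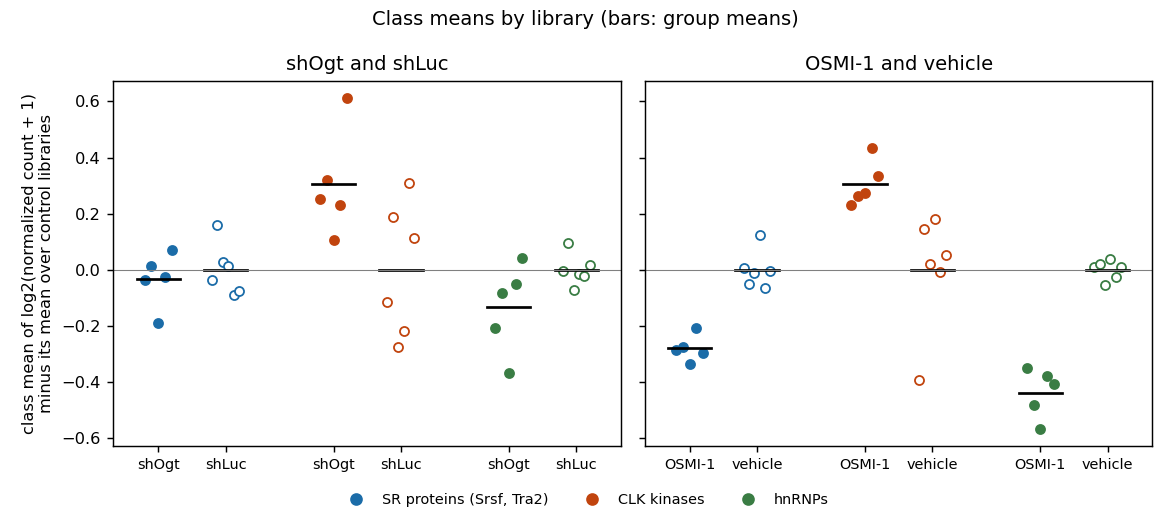
Class mean of log2(normalized count + 1) in each library minus its mean over the control libraries, for the knockdown arm at left and the inhibitor arm at right, with filled points for shOgt or OSMI-1 and open points for shLuc or vehicle, and bars at group means. In the inhibitor arm the filled SR and hnRNP points lie below all open points of their class, and in the knockdown arm they overlap.

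Annotated transcript types were counted for each class. A transcript annotated for nonsense-mediated decay was listed for 11 of 13 SR proteins, all 4 CLK kinases and 10 of 20 hnRNPs, beside 30.0% of the coding genes tested in the inhibitor arm (GENCODE M21). A retained-intron transcript was listed for 10 SR proteins, 4 CLK kinases and 14 hnRNPs, beside 61.6%. Among hnRNPs, 8 of the 10 with a decay transcript fell with OSMI-1 and 7 of the 10 without. The tables give 1 value for each gene, so poison exons and retained introns cannot be seen in them.

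Overlapping neighbors limit a few members, since the labels do not settle whether counting used strand. In that annotation, exons of Clk3, Hnrnpab, Hnrnph3, Hnrnpk, Hnrnpu and Srsf2 overlap exons of a coding gene on the opposite strand, and those of Srsf1, Srsf4, Hnrnpd, Hnrnpf, Hnrnpl and Hnrnpr a noncoding one. For Hnrnph3 the overlap with Rufy2 is 115 bases.

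Other genes of splicing were counted from lists, whose members were chosen with earlier results in view. Their counts stand beside the shares of all genes given above, with OSMI-1 13.2% that fell and 11.6% that rose, and after knockdown 16.4% that fell and 15.4% that rose. Of 31 core spliceosome genes, 19 fell and none rose with OSMI-1 (median log2 fold change -0.28), and 16 fell and 1 rose after knockdown (median -0.21). Snrpb, a core protein of the small nuclear ribonucleoproteins, averaged 1722 ± 71.5 in OSMI-1 and 2319.8 ± 118 in vehicle libraries (log2 fold change -0.43), and 4838 ± 220 in shOgt and 6044 ± 484 in shLuc libraries (-0.32), without overlap in either arm. Prpf19, a ubiquitin ligase of the spliceosome, fell by 0.67 with OSMI-1, and Sf1, which recognizes the branch point, fell by 0.47 after knockdown. Of 15 hnRNP-type genes under other symbols, 9 fell and none rose with OSMI-1, among them Ptbp1, the repressor of neuronal exons (-0.54), and the stability factor Elavl1 (-0.38). After knockdown 4 fell and 1 rose, among them Ewsr1, which fell by 0.45 and averaged 7423 ± 559 in shOgt and 10178 ± 956 in shLuc libraries.

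Of 20 SR-related and nuclear speckle genes, none fell and 3 rose with OSMI-1, namely Srek1 (0.44), Pnisr (0.37) and the speckle scaffold Son (0.27), with a median log2 fold change of 0.12. After knockdown 2 fell, Scaf11 (-0.59) and Rsrc1 (-0.45), and none rose. Of 9 genes for other SR kinases, the phosphatase and the importer, Srpk2, which phosphorylates SR proteins in the cytoplasm, rose by 0.37 with OSMI-1 and fell by 0.32 after knockdown. It averaged 709.8 ± 83.7 in OSMI-1 and 545 ± 36.2 in vehicle libraries, and 688 ± 85.1 in shOgt and 856 ± 75.4 in shLuc libraries, with overlap in both arms. Ppp1ca, a catalytic subunit of protein phosphatase 1, fell by 0.19 with OSMI-1 and rose by 0.16 after knockdown, and Srpk3 rose by 0.55 after knockdown. Of 10 nonsense-mediated decay genes, 2 fell and 1 rose after knockdown, near the shares of all genes, namely Smg9 (-0.59), Smg5 (-0.62) and Upf3b (0.46). Of 10 tested tissue-restricted regulators, 1 fell and 1 rose with OSMI-1, and 3 fell and 2 rose after knockdown, led by Celf1 (-0.75) and Mbnl1 (-0.52).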

How the data were processed

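The 2 tables hold normalized counts per gene and library (signal values deposited by the authors, each a whole read count divided by a constant of its library), with their log2 fold changes, a test score (the Wald statistic) and p-values from the same fit. Per the submitters' processing notes, STAR, RSEM and DESeq2 were used, with no versions given, and a human build, hg38, is named although the samples and symbols are mouse. The authors' deposited log2 fold changes have shOgt over shLuc for knockdown, but vehicle over OSMI-1 for the inhibitor, where signs were turned here. The labels' protocols name a strand-specific poly(A) kit and the design text Smart-Seq2, and this was not settled. Dividing each library's normalized counts by the value of 1 read gave whole numbers within 0.001 for 100% of values. The number of reads counted to genes is therefore known, but not the number sequenced. Here, genes passing edgeR's filterByExpr (minimum count 10) were tested with limma 3.58.1 (trend option, R 4.3.3), table by table, using log2(normalized count + 1) as values, two-sided, Benjamini-Hochberg over all genes tested, threshold 0.05. The added 1 makes fold changes of low genes smaller. Differences between arms used Welch-Satterthwaite degrees of freedom. Alternatives were edgeR 4.0.16, DESeq2 1.42.0 (both on recovered reads), the deposited p-values, TMM, a pseudocount of 5, no filter, a mean of at least 50, a replicate block and leaving out libraries. The test was tested on simulated data. The members and lists were chosen with earlier results of these data known. For members called in an arm, up to the 12 with the smallest adjusted p, the value in every shOgt or OSMI-1 library was given. The control libraries were given for them as lowest, median and highest value. Clk4 was added after its values were seen, and up to 3 genes were named for each list and arm. The nonsense-mediated decay list in the inhibitor arm is not reported here.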

Additional observations from a re-analysis of the deposited data

Results flagged for a closer look

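In 12 of the 148 groups of libraries (37 genes, 4 groups), 8.11%, 1 library stood apart from the others by Dixon's test, beside about 1 in 20 from chance. In the knockdown arm these were Clk4 in shOgt 5 (396 normalized counts, others 282 to 297), Hnrnpf in shOgt 6 (9418), Hnrnpa3 in shLuc 2 (589) and Hnrnpl in shLuc 3 (138). In the inhibitor arm the OSMI-1 libraries concerned were Srsf3 in OSMI-1 4 (777, others 1001 to 1063), Hnrnpk in OSMI-1 4 (7009), Srsf5 in OSMI-1 1 (758) and Hnrnpc in OSMI-1 1 (1498). The vehicle libraries were Srsf11 in vehicle 1 (629), Hnrnpr in vehicle 1 (1057), Hnrnpf in vehicle 2 (4418) and Hnrnpm in vehicle 2 (1276). OSMI-1 4 also had the most reads counted to genes in its arm, with 12.8 M. Without it Srsf3 kept its call, and Hnrnpk lost it.

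For 8 members the log2 fold changes of the arms differed by a test of the difference, knockdown minus OSMI-1, beside 23.9% of all genes tested in both arms, a share no lower than that of the members. The values were 0.91 for Hnrnpa1, 0.86 for Hnrnpa0, 0.68 for Hnrnph3, 0.64 for Srsf3, 0.53 for Hnrnph1, 0.29 for Hnrnpa2b1, 0.29 for Hnrnpf and 0.27 for Tra2b. Agent, duration and table differ between the arms and cannot be told apart.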

How the results depend on the processing

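No member changed direction with a call under any alternative run. Over the alternatives that keep all libraries, 6 to 9 members were called after knockdown, and 18 to 22 with OSMI-1. Hnrnpul1 lost its OSMI-1 call in edgeR (adjusted p = 0.0597) and DESeq2 (0.0607). With no filter, 11 hnRNPs fell with OSMI-1 in place of 15. The Tra2b difference between arms was lost in DESeq2 (0.0514), in the deposited p-values, with no filter (0.0588) and without the libraries that stood apart (0.116). Those libraries, chosen on principal components, were shLuc 1, shLuc 3, shOgt 3, vehicle 1 and OSMI-1 5.

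Leaving out 1 library at a time gave 4 to 9 member calls, 1 to 3 SR falls and 1 to 4 hnRNP falls after knockdown, and 17 to 21 member calls, 5 to 6 SR falls and 11 to 15 hnRNP falls with OSMI-1. Hnrnpc was lost in 10 of these 11 fits, and Hnrnpu, Hnrnpul1 and Srsf10 in 6 each. Between 6 and 10 members differed between arms. The SR minus hnRNP shift ranged from 0.0804 to 0.120 after knockdown and from 0.139 to 0.181 with OSMI-1. With medians over members in place of means it was 0.226 and 0.263. Without Srsf12, an alternative chosen after seeing the data, it was -0.00338 after knockdown.

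Deviations from the group means correlated at -0.0992 to 0.161 between same-numbered libraries, highest for number 3 of the knockdown arm. Such values cannot show whether same-numbered libraries share a culture, and the main test used no pairing. With the replicate block, 9 members were called after knockdown, 5 hnRNPs fell there (Hnrnph1 and Hnrnph2 added), and 20 members were called with OSMI-1 (Clk4 and Hnrnpc lost).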
